A study of Mus musculus with 36 samples.

Results

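The miRNAs of liver were set against those of eWAT, the epididymal white adipose tissue beside the testis of male mice, within the HF group of a small RNA sequencing series. Members were 11 of its 36 libraries: liver HF replicates 1 to 5, which the authors kept in their deposited liver log2 table, and eWAT HF replicates 1 to 6. All mice in both groups were wild-type C57BL/6 males of the F1 generation, aged 24 weeks, fed chow to 6 weeks of age and a named diet for the following 18 weeks. The diet tag of these samples is HFD, while the treatment protocol of every sample in the series names LFD, so the labels leave unclear whether HF was the diet of the mouse or of its father. Both tissues carry the same tag, so diet is not a difference between the groups compared here. Of 1966 mature miRNA names in the count table, 1189 had a count in a library used and 559 were abundant enough to be tested. The labels number the replicates but do not state that each is a different mouse, and the tests therefore rest on library-to-library spread, which may be technical. They use the same numbers in both tissues without stating whether liver and eWAT of a number came from the same mouse.

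A miRNA is cut from a hairpin precursor as a duplex of a 5p and a 3p arm, and the arm loaded into an Argonaute protein guides it to messenger RNAs that pair with the seed, bases 2 to 8 of the mature strand. miRNAs that share a seed can bind many of the same targets, while neighbouring hairpins cut from a common transcript often rise and fall together. Liver is built mainly of hepatocytes, the cells of lipid, glucose and bile acid metabolism. White fat stores triglyceride in adipocytes and also holds preadipocytes, vessels and immune cells. In such bulk tissue, fewer cells of a type and less of an miRNA per cell cannot be told apart.

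The mature sequences of the miRNAs on which the comparison turned are printed from RefSeq (GRCm38.p6) 5′ to 3′, with the seed in capitals. The table held a sequence for 445 of the 559 miRNAs tested. The first set shows miRNAs that were high in liver, with the relative of miR-192 that shares its seed.
miR-192-5p: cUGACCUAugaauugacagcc
miR-215-5p: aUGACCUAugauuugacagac
miR-194-5p: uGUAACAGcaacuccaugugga
miR-802-5p: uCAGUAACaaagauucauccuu
miR-101b-3p: gUACAGUAcugugauagcu
miR-31-5p: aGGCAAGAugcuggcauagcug

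A second set shows miRNAs that were high in eWAT, from imprinted, Slit and Hox loci.
miR-127-3p: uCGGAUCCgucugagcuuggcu
miR-434-3p: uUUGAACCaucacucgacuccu
miR-379-5p: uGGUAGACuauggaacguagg
miR-335-5p: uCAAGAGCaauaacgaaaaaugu
miR-218-5p: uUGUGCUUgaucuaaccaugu
miR-196a-5p: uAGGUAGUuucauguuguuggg

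The third set shows relatives with a common seed whose balance differed between the tissues.
miR-10a-5p: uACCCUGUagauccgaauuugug
miR-10b-5p: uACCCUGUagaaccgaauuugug
miR-103-3p: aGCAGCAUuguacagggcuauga
miR-107-3p: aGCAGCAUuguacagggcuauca
miR-148a-3p: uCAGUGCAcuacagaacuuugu
miR-148b-3p: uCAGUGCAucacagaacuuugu
miR-152-3p: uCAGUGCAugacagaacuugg
miR-27a-3p: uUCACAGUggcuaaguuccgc
miR-27b-3p: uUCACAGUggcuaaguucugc
miR-146a-5p: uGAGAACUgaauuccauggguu
miR-146b-5p: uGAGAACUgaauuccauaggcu

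Counting positions from 1 at the 5′ end, miR-10b-5p differs from miR-10a-5p by U12A alone, miR-107-3p from miR-103-3p by G22C alone, and miR-27b-3p from miR-27a-3p by C19U alone. None of these differences lies in the seed. Sequencing or alignment errors can move reads between relatives this close, so the low member of such a pair is an uncertain value.

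The libraries held 12788313 to 15662851 counts in liver and 9066683 to 14803991 in eWAT. Counts were concentrated in few miRNAs: the 10 most abundant took 79.2% to 83.5% of a liver library and 62.5% to 64.9% of an eWAT library. miR-122-5p, the defining miRNA of hepatocytes, accounted for 46.1% to 57.0% of each liver library and for 0.0553% to 0.286% of each eWAT library. miR-143-3p, a miRNA of smooth muscle and other mesenchymal cells, led every eWAT library with 12.8% to 22.8% of its counts and took 1.24% to 1.49% of the liver libraries. More miRNAs had a count in eWAT, 747 to 836 per library, than in liver, 540 to 628. With so much of each liver library held by miR-122-5p, a smaller share was left there for other miRNAs. These numbers are thus not at equal depth. Liver HF replicate 6, which is absent from the authors' liver log2 table, had counts for 368 miRNAs and was left out of the fits unless stated.

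Levels are given as scaled CPM, read counts brought to a common library size by edgeR's trimmed mean of M-values (TMM). The TMM factors were 0.478 to 0.638 in liver and 1.49 to 1.72 in eWAT, so the scaled CPM of a liver library add up to more than its plain CPM, and a single miRNA can hold 1191520. Under plain library totals every log2 difference of liver minus eWAT moved down by a median of 1.41, and the median over the 559 miRNAs moved from -0.12 to -1.54. A miRNA higher in liver by less than about this shift therefore turned to higher in eWAT under plain totals. For this reason calls higher in liver are also counted under 4 scalings: TMM, plain totals, DESeq2 size factors, and TMM on totals without miR-122-5p and miR-143-3p.

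Levels differed between the tissues for 349 of 559 miRNAs (62.4%) by edgeR's quasi-likelihood test at a Benjamini-Hochberg adjusted p under 0.05. Of these, 164 (29.3%) were higher in liver and 185 (33.1%) higher in eWAT. Under all 4 scalings 51 (9.12%) were called higher in liver, while all 185 (33.1%) calls higher in eWAT held. The median difference over all miRNAs was -0.12 under TMM and -1.54 under plain totals. It was -0.31 with DESeq2 size factors and -0.14 with totals without miR-122-5p and miR-143-3p. Each other scaling thus moved toward eWAT, so a call higher in eWAT could hardly be lost, and its holding adds no support. This applies to every eWAT call given under all 4 scalings below. Tested against a difference of 2-fold, 87 (15.6%) were higher in liver and 113 (20.2%) in eWAT, and 35 (6.26%) and 113 (20.2%) were so under all 4 scalings. The libraries of the tissues did not overlap for 280 miRNAs (50.1%), with liver above for 127 (22.7%) and eWAT above for 153 (27.4%), and overlapped for 279 (49.9%). Among the 69 miRNAs with a mean of 1000 scaled CPM or more in a tissue, 81.2% were called, against 42.4% of the 250 that stayed under 10.

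**Figure D1:**
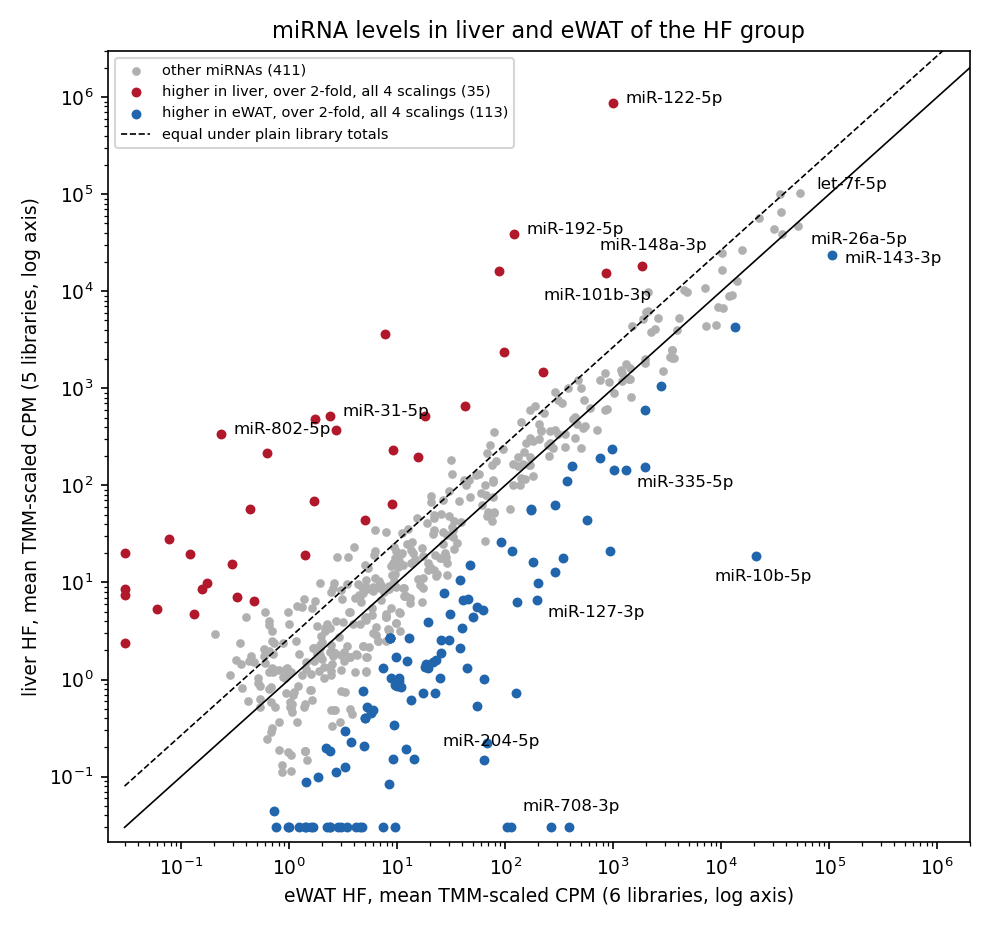
Mean TMM-scaled CPM of the 559 miRNAs tested in eWAT (x) and liver (y), both on log axes, with means under 0.03 drawn at 0.03. Red and blue mark the 35 and 113 miRNAs higher in liver or eWAT beyond 2-fold under all 4 scalings, and the solid and dashed lines equal levels under TMM and under plain totals. miR-122-5p, miR-192-5p and miR-802-5p lie far above both lines, and miR-10b-5p and miR-708-3p far below.

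The strongest liver signal came from the hepatocyte list, which like all lists was chosen with earlier results of these data known. The list counts both arms of hairpins such as miR-122 separately and holds the miR-101 relatives and miR-148a described below. Of its 14 members tested, 13 were higher in liver and 0 higher in eWAT, 11 of them under all 4 scalings, and their median log2 difference was 7.84, against -0.12 over all miRNAs. Over all miRNAs 29.3% were higher in liver, and 9.12% under all 4 scalings. Members scarce in eWAT, such as miR-802-5p, could be abundant enough for testing through liver alone. The count of 13 is thus partly given by that filter. miR-122-5p, which supports cholesterol and lipid metabolism in hepatocytes, stood at 1191520, 767459, 857666, 758197 and 766258 scaled CPM in liver replicates 1 to 5. In eWAT it had a lowest value of 372, a median of 900 and a highest of 1813. All liver libraries lay far above all eWAT libraries, and the fitted log2 difference was 9.76 ± 0.44 (SE; edgeR adjusted p = 1.84e-09). Its partner arm miR-122-3p followed, with 3623 ± 529 scaled CPM in liver (SD, n = 5) and 7.80 ± 5.93 in eWAT (SD, n = 6). In eWAT both arms were highest in replicate 5, with 1813 and 18.5, and lowest in replicate 1, with 372 and 1.68.

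The miR-192 and miR-194 hairpins form a cluster on chromosome 19 (GRCm38, Mir194-2 at chr19:6264643-6264728 and Mir192 at chr19:6264844-6264932, plus strand), in no annotated host gene of GENCODE M21. Both are known as targets of the hepatic nuclear factors. miR-192-5p reached 35360, 35423, 37866, 42568 and 40995 scaled CPM in the liver libraries, and 101, 118 and 153 at the lowest, median and highest of eWAT. miR-194-5p reached 13706, 13440, 15912, 19196 and 18706 in liver, and 73.6, 86.9 and 97.9 in eWAT. Neither overlapped between tissues, and the log2 differences were 8.30 ± 0.14 and 7.54 ± 0.14 (SE; edgeR adjusted p = 2.52e-15 and 7.23e-15). miR-194-5p is also cut from a second hairpin beside Mir215 on chromosome 1, and the 2 sources cannot be separated by the mature strand. The strand that is specific to the chromosome 19 copy, miR-194-2-3p, differed as strongly, with 484 ± 55.0 scaled CPM in liver (SD, n = 5), 1.73 ± 1.29 in eWAT (SD, n = 6) and a log2 difference of 8.15.

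miR-215-5p, which has the seed of miR-192-5p but lies on chromosome 1 (Mir215, chr1:185313581-185313692), did not share this separation. It stood at 32.7 ± 6.81 scaled CPM in liver (SD, n = 5) and 11.1 ± 7.38 in eWAT (SD, n = 6), the libraries overlapped, and its call (log2 difference 1.55) was lost under plain totals. Of the summed miR-192-5p and miR-215-5p counts, miR-192-5p held 99.9% ± 0.0198 in liver (SD, n = 5) and 82.2% to 97.3% in eWAT.

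miR-802-5p, a liver miRNA known to rise in obese mice and to impair glucose handling, had the largest fitted log2 difference toward liver of the miRNAs counted in both tissues. Its liver libraries held 314, 404, 262, 345 and 378 scaled CPM, and the eWAT libraries 0, 0.267 and 0.497 at the lowest, median and highest. The log2 difference was 10.52 ± 0.49 (SE; edgeR adjusted p = 2.04e-09), and 2 of the 6 eWAT libraries had no count. Its 3p arm had a count in every liver library and none in eWAT, and was at least 315-fold higher in liver, with eWAT set at the floor of 3 counts over the group. Mir802 lies at chr16:93369720-93369816 in no annotated host gene.

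The miR-101 relatives, which target the chromatin regulator Ezh2, were both higher in liver under TMM, yet by very different amounts. miR-101b-3p, cut from an intron of Rcl1 (chr19:29135279-29135375), stood at 12855, 15377, 14769, 17238 and 16493 scaled CPM in liver against 728, 877 and 933 at the lowest, median and highest of eWAT. Its log2 difference was 4.17 ± 0.10 (SE; edgeR adjusted p = 1.28e-13). miR-101a-3p differed by 1.59 ± 0.09 and lost its call under plain totals, where its difference was 0.18. As a share of the pair, which does not depend on scaling, miR-101b-3p took 70.2% to 72.3% in liver and 26.5% to 30.8% in eWAT.

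miR-148a-3p, a regulator of hepatic LDL receptor expression, was the main member of its seed family in liver. Its values were 14053, 17547, 18792, 20009 and 19880 scaled CPM in liver and 1685, 1830 and 2022 at the lowest, median and highest of eWAT, a log2 difference of 3.30 ± 0.10 (SE; edgeR adjusted p = 3.00e-12). miR-152-3p, with the same seed and cut from an intron of Copz2, went the other way under all 4 scalings, with 608 ± 49.6 in liver (SD, n = 5), 873 ± 91.3 in eWAT (SD, n = 6) and a log2 difference of -0.52 ± 0.09 (edgeR adjusted p = 0.000228). miR-148a-3p made up 92.5% to 93.8% of the 3 relatives in liver and 58.8% to 62.6% in eWAT, and miR-152-3p 2.93% to 3.51% and 27.0% to 30.6%. The third, miR-148b-3p, was higher in liver under TMM by 1.10 and lower under plain totals by -0.30.

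Further liver miRNAs that are less often named in hepatocytes had no overlap either. miR-455-3p stood at 2385 ± 290 scaled CPM in liver (SD, n = 5) and 97.2 ± 9.13 in eWAT (SD, n = 6), a log2 difference of 4.62 ± 0.11 (edgeR adjusted p = 1.28e-13), and its 5p arm differed by 5.33. miR-31-5p, cut from an exon of the long noncoding RNA AL805899.1 on chromosome 4, held 561, 427, 505, 575 and 508 scaled CPM in liver against 1.31, 2.54 and 3.70 at the lowest, median and highest of eWAT. Its log2 difference of 7.74 ± 0.26 (SE; edgeR adjusted p = 9.89e-12) was close to the median of the hepatocyte list, 7.84. Both arms of miR-1948 differed strongly, with 218 ± 15.5 scaled CPM in liver and 0.621 ± 0.697 in eWAT for the 5p arm and 370 ± 29.3 and 2.72 ± 1.78 for the 3p arm (SD, n = 5 and 6). miR-137-3p, best known from neurons, had 14.9 to 24.8 scaled CPM in the liver libraries, while 5 of the 6 eWAT libraries had no count.

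**Figure D2:**
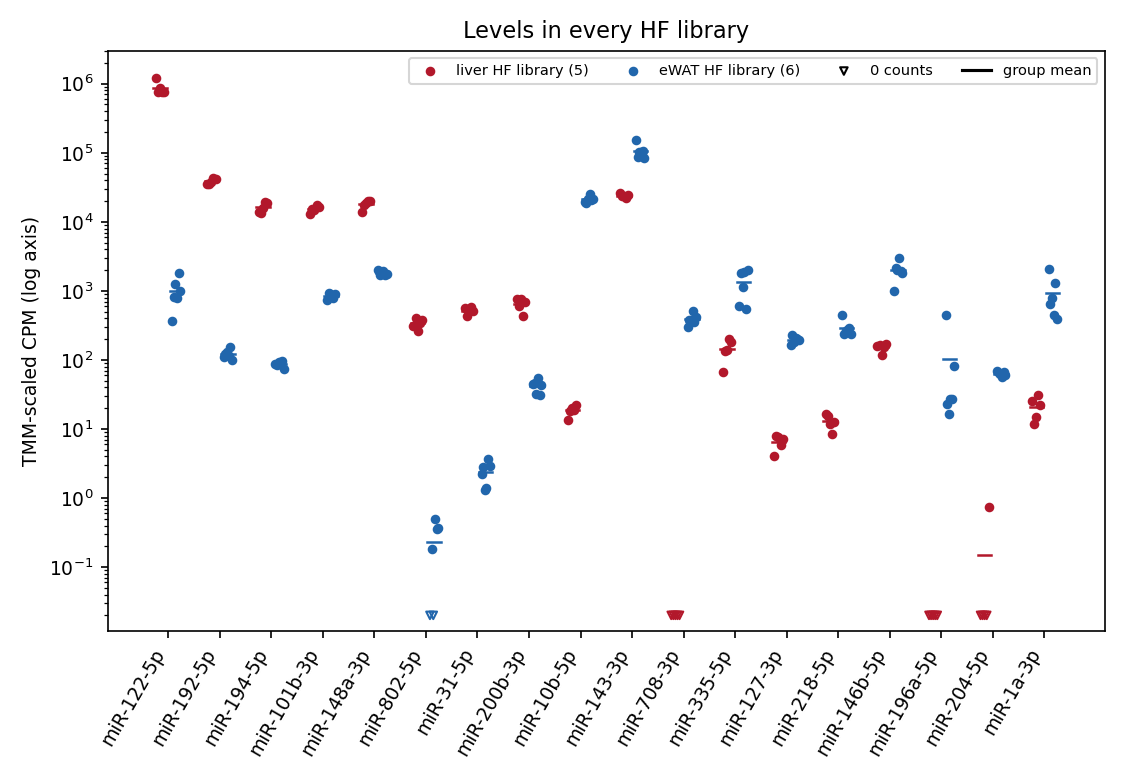
TMM-scaled CPM (log axis) of 18 miRNAs in each of the 5 liver and 6 eWAT HF libraries, liver in red and eWAT in blue, with bars at the group means and triangles for libraries with 0 counts. The tissues do not overlap for any of the 18, and miR-196a-5p in eWAT ranges from 16.5 to 444.

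miRNAs of epithelial cells were also higher in liver. Against 29.3% over all miRNAs, and 9.12% under all 4 scalings, 10 of 12 tested were higher in liver, 7 under all 4 scalings. These 7 came from the miR-200b, miR-200a and miR-429 cluster, with 4, and the miR-183, miR-96 and miR-182 cluster, with 3. None of the list was higher in eWAT, and its median log2 difference was 2.79. The summed level of the list was 5429 to 6615 scaled CPM in liver and 1302 to 1933 in eWAT. Most of this sum was miR-203-3p, at 4387 ± 567 in liver and 1496 ± 268 in eWAT (SD, n = 5 and 6). Its log2 difference of 1.55 was 0.14 under plain totals, and its call did not hold under all 4 scalings. The cluster of miR-200b, miR-200a and miR-429 on chromosome 4, which represses the mesenchymal factors Zeb1 and Zeb2, had all 5 tested strands higher in liver, 4 under all 4 scalings. miR-200b-3p reached 760, 612, 772, 436 and 681 scaled CPM in liver and 31.4, 44.5 and 54.0 at the lowest, median and highest of eWAT, a log2 difference of 3.95 ± 0.19 (SE; edgeR adjusted p = 3.92e-10). The sister cluster on chromosome 6 did not follow to the same extent. miR-200c-3p differed by 0.93 with overlapping libraries and reversed to -0.47 under plain totals. miR-141-3p, its neighbour, was not called (edgeR adjusted p = 0.0887), nor was miR-205-5p, a marker of squamous and glandular epithelium (edgeR adjusted p = 0.0559).

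The miR-183, miR-96 and miR-182 cluster on chromosome 6, already counted in the epithelial list, was higher in liver in all 3 tested members and under all 4 scalings. miR-182-5p stood at 518 ± 146 scaled CPM in liver (SD, n = 5) and at 9.44, 16.4 and 31.9 at the lowest, median and highest of eWAT, without overlap,, a log2 difference of 4.84 ± 0.34 (SE; edgeR adjusted p = 9.40e-08). miR-183-5p and miR-96-5p differed by 4.65 and 5.68. miR-7a-5p, abundant in endocrine cells, was higher in liver by 2.70 ± 0.10 with 1465 ± 148 against 225 ± 21.5 scaled CPM (SD, n = 5 and 6). miR-375-3p, the islet miRNA named beside it in the endocrine list, was not called. That list had 1 member higher in liver, also under all 4 scalings, and 1 higher in eWAT of 4 tested, against 29.3% and 33.1% over all miRNAs.

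The oncomir cluster miR-17-92 and its paralogs gave 7 higher in liver and 1 in eWAT of 11 tested, against 29.3% and 33.1% over all miRNAs. The median log2 difference of 0.92 was -0.48 under plain totals. Only 4 were higher in liver under all 4 scalings, against 9.12% over all miRNAs. The 4 were miR-19a-3p, miR-19b-3p, miR-20a-5p and miR-92a-3p. miR-19b-3p and miR-92a-3p are cut from copies on both chromosome 14 and the X chromosome. miR-92a-3p stood at 11309, 10074, 9516, 9345 and 8686 scaled CPM in liver and 2021, 2071 and 2204 at the lowest, median and highest of eWAT, a log2 difference of 2.23 ± 0.08 (SE; edgeR adjusted p = 9.89e-12). miR-19b-3p and miR-19a-3p differed by 2.54 and 2.37, and miR-17-5p by 1.54 with 0.13 under plain totals. miR-25-3p of the paralog cluster on chromosome 5 had the seed of miR-92a-3p and did not differ (log2 difference -0.03, 95% interval within 0.5 either way), and miR-363-3p, with the same seed on the X chromosome, was higher in eWAT by 2.29 at under 4 scaled CPM in every library.

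The calls in families of broadly expressed miRNAs depended more on the scaling. They are to be read against 29.3% of all miRNAs higher in liver under TMM and 9.12% under all 4 scalings. In the miR-29 family, which represses collagen genes, 6 of 7 members were higher in liver and 0 in eWAT with a median log2 difference of 1.19, but the median was -0.22 under plain totals. miR-29c-3p, at 355 ± 64.5 in liver and 78.2 ± 3.32 in eWAT (SD, n = 5 and 6), alone held under all 4 scalings, with 2.18 under TMM and 0.77 under plain totals. In the miR-30 family, found in adipocyte differentiation and in liver, 9 of 10 were higher in liver under TMM, 0 of them under all 4 scalings, with a median of 0.76 that was -0.65 under plain totals. miR-21a-5p, the third most abundant in liver, had 101336 ± 13008 scaled CPM in liver and 35412 ± 3959 in eWAT (SD, n = 5 and 6) and a log2 difference of 1.52 under TMM and 0.10 under plain totals.

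The eWAT signal was led by miRNAs of the Hox gene clusters, which carry positional identity along the body axis. All 7 Hox-embedded strands tested were higher in eWAT under all 4 scalings, 5 of them beyond 2-fold, with a median log2 difference of -7.34, unchanged with the 2 members at 0 in liver set at their bound. Over all miRNAs 33.1% were higher in eWAT under all 4 scalings, and 20.2% beyond 2-fold. miR-10b-5p, in an intron of Hoxd3 and Hoxd4 (Mir10b, chr2:74726070-74726137), held 13.6, 18.4, 20.2, 18.5 and 22.3 scaled CPM in liver. In eWAT it had 18804, 21045 and 24967 at the lowest, median and highest, a log2 difference of -10.15 ± 0.17 (SE; edgeR adjusted p = 2.52e-15). miR-10a-5p, with the U12A difference and the same seed, was abundant in both tissues, at 9157 ± 931 in liver and 12624 ± 1428 in eWAT (SD, n = 5 and 6; log2 difference -0.46).

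miR-10b-5p therefore made up 0.137% to 0.269% of the 2 relatives in liver and 61.0% to 64.3% in eWAT. The 3p arm, which has its own sequence, separated the tissues fully: miR-10b-3p had no count in any liver library and 113 ± 16.6 scaled CPM in eWAT (SD, n = 6), at least 1584-fold higher with liver at the floor of 3 counts over the group. miR-615-3p, in the Hoxc cluster, stood at 0.733 ± 0.891 in liver (SD, n = 5) and 126 ± 19.9 in eWAT (SD, n = 6). miR-196a-5p had no count in liver, and its eWAT libraries held 444, 23.2, 16.5, 27.4, 26.8 and 80.7 scaled CPM in replicates 1 to 6. It was at least 1446-fold higher in eWAT on the mean of these, which rests largely on replicate 1: the mean without that library was 34.9, against 103 with it. miR-196b-5p, with the same seed, was highest in the same library, at 231 scaled CPM against 12.2 to 34.2 in the others.

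Both arms of miR-708 were absent from the counts of all 5 liver libraries. miR-708-3p held 305, 376 and 508 scaled CPM at the lowest, median and highest of eWAT, and miR-708-5p 187, 267 and 366, at least 5453-fold and 3757-fold higher with liver at the floor. miR-204-5p, in an intron of Trpm3, had a count in only 1 liver library, at 0.737 scaled CPM, and 56.9 to 69.9 in the eWAT libraries, a log2 difference of -8.52 ± 0.63 (SE; edgeR adjusted p = 6.28e-08). In all, 26 tested miRNAs had no count in any library of a tissue, 23 in liver and 3 in eWAT. The floor of 3 counts was 0.0713 scaled CPM in liver and 0.0274 in eWAT, so a scarce miRNA was more easily missed in liver. The 26 miRNAs passed the filter through the tissue that held them, so their direction was given by the filter. The filter asked for enough counts in the libraries of either tissue. A miRNA with few counts in a tissue could therefore also enter through the other tissue alone. For the hepatocyte, Hox and Dlk1-Dio3 lists, which hold such miRNAs, the counts of calls are partly given by the filter.

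The imprinted Dlk1-Dio3 domain of chromosome 12, whose miRNAs are expressed from the maternal chromosome and are prominent in embryo, brain and mesenchymal cells, was higher in eWAT for almost all strands listed for it. Of 61 listed strands 48 were tested, and 46 were higher in eWAT and 0 in liver under all 4 scalings, 42 beyond 2-fold, with a median log2 difference of -3.89. The shares over all miRNAs were 33.1% higher in eWAT under all 4 scalings and 20.2% beyond 2-fold. The 10 members with no count in liver are among the 46, and setting them at their bound leaves the list median the same. Members scarce in liver could pass the filter through eWAT alone, so the count of 46 is partly given by the filter. The listed strands summed to 85.2 to 145 scaled CPM in liver and 1314 to 1947 in eWAT. The 2 listed members not called were miR-376a-3p and miR-154-3p, with log2 differences of -1.65 and -1.95.

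miR-127-3p, transcribed against Rtl1 and able to cleave its transcript (Mir127, chr12:109592846-109592915), held 4.07, 7.97, 7.64, 5.88 and 7.26 scaled CPM in liver. In eWAT it had 165, 200 and 230 at the lowest, median and highest, a log2 difference of -4.90 ± 0.19 (SE; edgeR adjusted p = 3.00e-11). miR-434-3p, from the same Rtl1 region, stood at 9.81 ± 4.73 in liver and 203 ± 22.2 in eWAT (SD, n = 5 and 6; log2 difference -4.37). In the distal cluster that runs from Mir379 (chr12:109709060-109709125), 33 of 36 tested strands were higher in eWAT, against 33.1% over all miRNAs. Of the 36, 5 are not on the list and include the uncalled miR-376a-5p. The filter limit given for the list applies to this cluster as well. The cluster's most abundant member miR-379-5p held 18.0 ± 8.75 in liver and 344 ± 84.0 in eWAT (SD, n = 5 and 6; log2 difference -4.25 ± 0.32, edgeR adjusted p = 8.54e-08). miR-411-5p (-4.36), miR-541-5p (-3.49) and miR-382-5p (-3.60) differed by similar amounts.

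Other imprinted loci pointed the same way. miR-335, in an intron of Mest (chr6:30741299-30741396), a gene expressed from the paternal chromosome that marks fat expansion, was higher in eWAT in both arms. miR-335-5p held 68.0, 135, 139, 200 and 179 scaled CPM in liver and 554, 1482 and 1975 at the lowest, median and highest of eWAT, a log2 difference of -3.20 ± 0.42 (SE; edgeR adjusted p = 3.22e-05). Its eWAT libraries were uneven, with replicates 1 and 5 at 596 and 554 and the other 4 at 1156 or more. All 3 strands tested from the miR-296 and miR-298 cluster at the imprinted Gnas locus were higher in eWAT, against 33.1% over all miRNAs. miR-296-5p had no count in liver, and miR-298-5p stood at 0.724 ± 0.809 in liver and 22.4 ± 9.66 in eWAT (SD, n = 5 and 6). Strands this scarce in liver could pass the filter through eWAT alone, so their direction was partly given by the filter.

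The adipocyte list did not separate the tissues in a single direction: 7 of 14 members were higher in liver and 5 in eWAT, with a median log2 difference of 0.60 that was -0.81 under plain totals. Over all miRNAs 29.3% were higher in liver and 33.1% in eWAT, so the eWAT share of the list was near that of all miRNAs. The 5 higher in eWAT held under all 4 scalings and were both arms of miR-335, miR-103-3p, miR-193b-3p and miR-365-3p, the last pair known from brown fat. miR-193b-3p stood at 0.963 ± 1.09 in liver and 10.4 ± 2.11 in eWAT (SD, n = 5 and 6). Of the 7 higher in liver only miR-107-3p held under all 4 scalings, a share of the list near the 9.12% over all miRNAs. miR-103-3p and miR-107-3p, regulators of insulin sensitivity cut from introns of Pank2 and Pank3 and of Pank1, are told apart by the G22C difference near the 3′ end. miR-103-3p had 4501 ± 586 scaled CPM in liver and 8918 ± 862 in eWAT (log2 difference -0.99), and miR-107-3p 604 ± 51.9 and 171 ± 22.0 (log2 difference 1.82; SD, n = 5 and 6 for both). miR-107-3p made up 11.3% to 12.6% of the pair in liver and 1.57% to 2.01% in eWAT.

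Among lipid-gene introns, miR-33-5p, which lies in Srebf2 and represses cholesterol export, was higher in liver by 2.60 but stood at only 2.11 to 5.89 scaled CPM there, and its call was lost under plain totals. miR-378a-3p, in Ppargc1b, was higher in liver by 0.76 under TMM and lower by -0.66 under plain totals.

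The smooth muscle and lymphocyte lists were higher in eWAT throughout, and the endothelial, fibroblast and myeloid lists in part. All 4 smooth muscle strands of miR-143 and miR-145 were called under all 4 scalings, against 33.1% of all miRNAs in eWAT, with a median log2 difference of -2.09. miR-143-3p held 26005, 23324, 23478, 22030 and 24321 scaled CPM in liver and 83722, 102152 and 153220 at the lowest, median and highest of eWAT (log2 difference -2.14 ± 0.14 SE, edgeR adjusted p = 1.27e-08). In the fibroblast list 5 of 9 were higher in eWAT, against 33.1% over all miRNAs, and 1 was higher in liver under TMM but not under all 4 scalings. The largest difference was that of miR-218-5p, cut from introns of Slit2 and Slit3, at 12.9 ± 3.20 and 292 ± 81.0 scaled CPM (SD, n = 5 and 6; log2 difference -4.51). miR-199a-3p differed by -0.49 and miR-214-3p was not called, with -0.04. The mature miR-199a-3p and miR-199b-3p cannot be told apart by these counts, yet both are among the 5 calls and are not separate measurements. In the endothelial list 1 of 3 was called, a share like that over all miRNAs: miR-126a-3p stood at 6775 ± 835 scaled CPM in liver and 10480 ± 941 in eWAT (SD, n = 5 and 6; log2 difference -0.63).

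All 6 lymphocyte strands were higher in eWAT under all 4 scalings, against 33.1% over all miRNAs, with a median log2 difference of -1.73. miR-150-5p, which marks mature B and T cells, held 139, 97.1, 166, 189 and 128 scaled CPM in liver and 759, 1117 and 1192 at the lowest, median and highest of eWAT, without overlap (log2 difference -2.83 ± 0.19 SE, edgeR adjusted p = 1.23e-08). miR-181a-5p differed by -1.71. In the myeloid list 5 of 9 were higher in eWAT, against 33.1% over all miRNAs, and 1 was higher in liver under TMM but not under all 4 scalings. The granulocyte and macrophage miRNA miR-223-3p stood at 157 ± 9.36 in liver and 420 ± 24.3 in eWAT, and the inflammatory miR-155-5p at 56.5 ± 12.9 and 175 ± 42.9 (SD, n = 5 and 6), both without overlap.

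The NF-kB-induced relatives miR-146a and miR-146b parted. miR-146b-5p, cut from an intron of Mfsd13a, held 159, 163, 120, 154 and 169 scaled CPM in liver and 1008, 1979 and 2971 at the lowest, median and highest of eWAT, a log2 difference of -3.70 ± 0.23 (SE; edgeR adjusted p = 1.42e-08). miR-146a-5p was not called, with 507 ± 169 and 443 ± 100 scaled CPM (SD, n = 5 and 6; log2 difference 0.19, -1.21 under plain totals). miR-146b-5p took 14.6% to 30.6% of the pair in liver and 69.1% to 90.1% in eWAT.

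In the red cell list 1 of 7 members was called, miR-486a-3p in eWAT, against 62.4% called over all miRNAs. miR-451a stood at 884 ± 384 scaled CPM in liver and 1028 ± 259 in eWAT (SD, n = 5 and 6) with overlapping libraries. Striated muscle miRNAs were higher in eWAT for 3 of 4 tested, against 33.1% over all miRNAs. miR-1a-3p stood at 11.6 to 31.5 scaled CPM in the liver libraries and at 2072, 648, 797, 442, 1297 and 393 in eWAT replicates 1 to 6, a log2 difference of -5.48 ± 0.53 (SE; edgeR adjusted p = 2.02e-06). miR-133a-3p moved with it, at 154 in eWAT replicate 1 and 14.8 to 82.7 in the others, while the skeletal muscle miR-206-3p was not called.

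Of 15 tested germ cell and epididymis miRNAs, 3 strands of miR-34b and miR-34c were higher in eWAT, a smaller share than the 33.1% over all miRNAs. miR-34c-5p was at 73.2 scaled CPM in eWAT replicate 6 and 9.41 to 27.3 in the other 5. The list summed to 36.1 to 62.8 scaled CPM in liver and 29.2 to 515 in eWAT. Its part in the differences between the tissues was not tested.

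**Figure D3:**
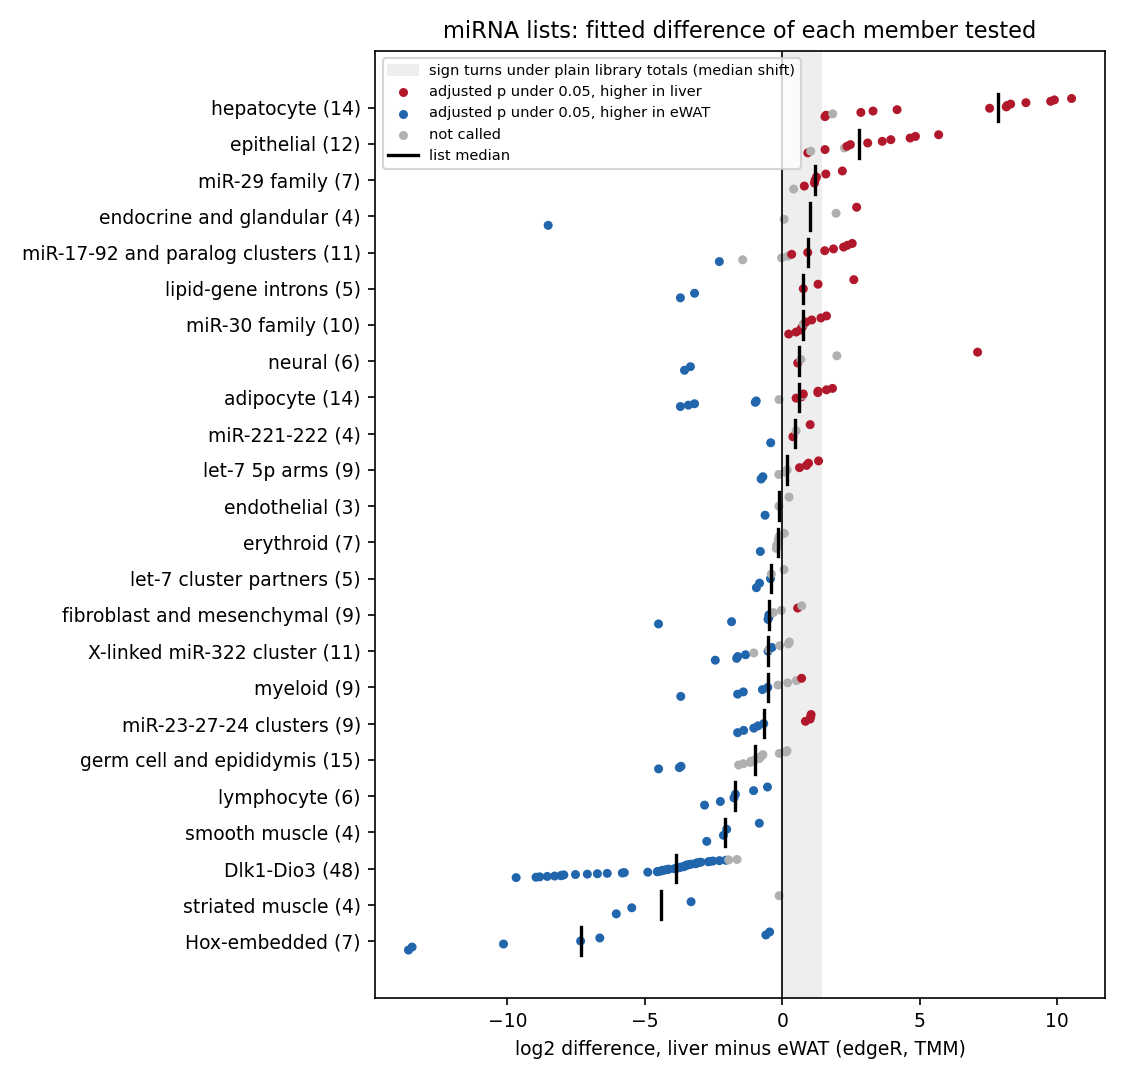
Fitted log2 difference of liver minus eWAT for each tested member of the 24 miRNA lists, with the number tested in brackets, list medians as black bars and called members in colour. Members with no count in a tissue are drawn at fitted values. Members inside the grey band, 0 to 1.41, change direction under plain totals, and the hepatocyte and Dlk1-Dio3 medians of 7.84 and -3.89 lie well outside it.

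The let-7 family, named in the title of the series and known as a repressor of growth and insulin signalling genes, was examined by its 9 abundant members with the seed GAGGUAG. let-7k, the remaining tested miRNA with this seed, had means of 0.788 scaled CPM in liver and 1.58 in eWAT and is left out. They are printed to show where each departs from let-7a-5p.
let-7a-5p: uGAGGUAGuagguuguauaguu
let-7b-5p: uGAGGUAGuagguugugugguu
let-7c-5p: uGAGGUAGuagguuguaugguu
let-7d-5p: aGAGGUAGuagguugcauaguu
let-7e-5p: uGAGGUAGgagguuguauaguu
let-7f-5p: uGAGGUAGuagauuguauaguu
let-7g-5p: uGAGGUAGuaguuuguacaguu
let-7i-5p: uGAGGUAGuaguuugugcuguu
miR-98-5p: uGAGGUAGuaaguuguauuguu

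Against let-7a-5p, let-7c-5p carries A19G, let-7f-5p G12A and let-7e-5p U9G as single differences, and let-7g-5p carries G12U and U18C. Together the 9 members held 16.1% to 18.2% of counts per liver library and 24.6% to 32.0% per eWAT library, each with a 95% Wilson interval at most 0.0588 percentage points wide, which covers counting error only. By share of all counts they were thus higher in eWAT, with a log2 difference of -0.72 under plain totals. After TMM scaling the direction was the opposite: 295994 ± 31564 scaled CPM in liver (SD, n = 5) and 181827 ± 16265 in eWAT (SD, n = 6), a log2 difference of 0.70 ± 0.08 (SE). The libraries did not overlap under either scaling, and the 2-sided exact permutation test gave p = 0.004329 for both, the smallest that 5 against 6 libraries allow.

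The composition of the family, which no scaling alters, differed between the tissues. let-7f-5p led in both, with 32.1% to 35.9% of the family in liver and 27.7% to 30.8% in eWAT. let-7g-5p took 16.3% to 20.8% in liver and 12.4% ± 0.309 in eWAT (SD, n = 6), and let-7a-5p 21.2% to 24.4% and 19.6% to 20.1%. In the other direction, let-7c-5p took 12.1% to 14.7% in liver and 19.0% to 22.1% in eWAT, and let-7b-5p 3.61% to 5.52% and 7.28% to 8.29%. The minor members let-7e-5p (0.688% and 1.94% on average), let-7i-5p (1.49% and 3.97%) and miR-98-5p (0.546% and 0.787%) also had larger shares in eWAT. Liver and eWAT libraries overlapped only for let-7d-5p.

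**Figure D4:**
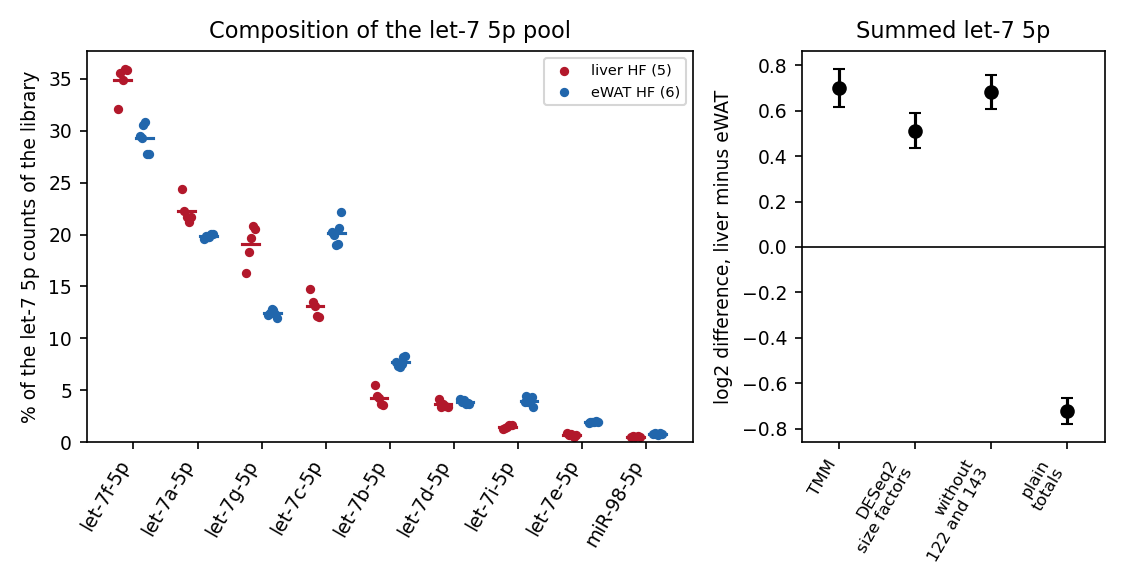
Left, share of each member in the let-7 5p counts of the 5 liver and 6 eWAT HF libraries, with bars at the means. Right, log2 difference (± SE) of the summed let-7 5p level under 4 scalings. The difference is 0.70 under TMM and -0.72 under plain totals.

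By level, let-7g-5p (1.32), let-7f-5p (0.95), let-7a-5p (0.88) and let-7d-5p (0.62) were called higher in liver under TMM and all had negative log2 differences under plain totals. let-7e-5p and let-7i-5p were higher in eWAT under all 4 scalings, by -0.77 and -0.71, and let-7b-5p, let-7c-5p and miR-98-5p were not called. Liver replicate 1 was the highest liver library for let-7a, let-7b, let-7c, let-7d, let-7e and let-7f, and let-7c-5p held 51556 scaled CPM there against 34508 to 38643 in the other 4. The cluster partners of let-7 were not higher in liver: 3 of 5 were higher in eWAT, against 33.1% over all miRNAs. Among these 3 were miR-100-5p with 2049 ± 235 and 3645 ± 181 scaled CPM (SD, n = 5 and 6; log2 difference -0.83) and miR-125b-5p with -0.43, while miR-99a-5p was not called.

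Among 62 miRNAs with a mean of at least 1000 scaled CPM, 10 had a 95% interval of the log2 difference within 0.5 either way under TMM. They were miR-26a-5p, let-7c-5p, let-7b-5p, miR-99a-5p, miR-151-5p, miR-126a-5p, miR-98-5p, miR-320-3p, miR-30a-3p and miR-25-3p. miR-26a-5p stood at 47263 ± 5454 in liver and 51378 ± 4102 in eWAT (SD, n = 5 and 6; log2 difference -0.12, edgeR adjusted p = 0.267). Its relative miR-26b-5p was higher in liver by 1.29 under TMM, and took 33.5% to 37.3% of the pair in liver and 15.2% to 18.1% in eWAT. Under plain totals all 10 were lower in liver, miR-26a-5p by -1.54.

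Across the 47 seed families with more than 1 member tested, which held 121 miRNAs, 9 had called members in both directions and 0 had them in both directions beyond 2-fold. In 3 families both directions held under all 4 scalings: miR-148a-3p against miR-152-3p, miR-92a-3p against miR-363-3p and miR-107-3p against miR-103-3p. The clusters of miR-23, miR-27 and miR-24 gave a further case that depended on scaling. Members of the chromosome 8 cluster were higher in eWAT under all 4 scalings, miR-23a-3p with 4311 ± 295 and 13329 ± 917 scaled CPM (log2 difference -1.63) and miR-27a-3p with 1047 ± 62.5 and 2778 ± 86.3 (-1.41; SD, n = 5 and 6). Those of the chromosome 13 cluster were higher in liver under TMM, miR-23b-3p by 1.03 and miR-27b-3p by 1.04, and lower under plain totals by -0.39 and -0.37. Free of scaling, miR-27b-3p made up 89.6% to 91.0% of its pair in liver and 61.4% to 67.4% in eWAT, and miR-23b-3p 54.0% to 57.1% and 14.3% to 21.0%.

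Neighbouring hairpins on a strand, joined where they lay within 10 kb, gave 35 clusters with 169 tested miRNAs. Under TMM all called members of 26 clusters pointed one way, 14 to liver and 12 to eWAT, in 3 they pointed both ways, and in 6 none was called. A cluster with a single called member, such as that of miR-200c and miR-141, points in a single direction by construction. Arms of a hairpin also counted as separate members, and 26 against 3 was not tested. Of the 14 liver clusters, 6 had a call that held under all 4 scalings, and of the 12 eWAT clusters all 12 did. The latter was close to given, as the other scalings moved differences toward eWAT. No cluster had members beyond 2-fold in both directions. On the X chromosome the miR-322 and miR-503 cluster, known from muscle and fat differentiation, had 5 of 9 members higher in eWAT and 0 in liver. Over all miRNAs the shares were 33.1% and 29.3%. miR-322-5p stood at 21.1 ± 3.75 in liver and 115 ± 17.7 scaled CPM in eWAT (SD, n = 5 and 6; log2 difference -2.44).

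The ratio of the 5p to the 3p arm within a precursor needs no scaling between libraries. It differed in 22 of 106 precursors (20.8%) by a 2-sided exact permutation test with Benjamini-Hochberg adjusted p under 0.05, 11 (10.4%) with more 5p in liver and 11 (10.4%) with more 5p in eWAT. With liver HF replicate 6 included, 11 of 110 were called. The largest difference was in mir-322, whose log2 ratio of 5p to 3p was -3.81, -4.38, -4.10, -3.46 and -3.59 in the liver libraries and -2.07 to -1.65 in eWAT, a difference of -1.93 ± 0.18 (SE; exact permutation p = 0.004329, adjusted 0.0229). mir-200b (-1.60), mir-671 (-1.52), mir-26b (-1.25) and mir-145a (-1.18) also had more 5p in eWAT. mir-340 (1.09), mir-434 (1.08), mir-23b (1.05) and mir-664 (1.02) had more 5p in liver. The called mir-199b and mir-486a have an arm that a near-identical copy shares, so their ratios are not of 1 precursor. Of the 22 called precursors, each kept the same dominant arm in both tissues on the mean ratio.

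**Figure D5:**
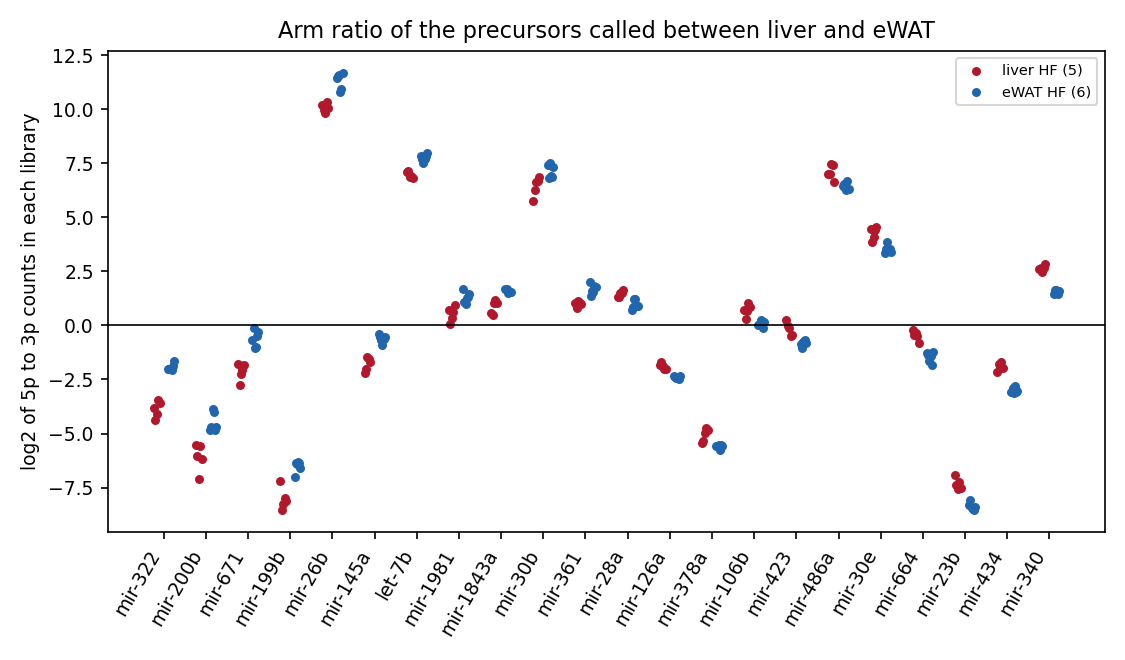
Log2 ratio of 5p to 3p counts in each of the 5 liver and 6 eWAT HF libraries for the 22 precursors whose ratio differed. The tissues do not overlap for mir-322, where liver lies at -4.38 to -3.46 and eWAT at -2.07 to -1.65.

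The tissue difference in HF was then set against that in the LF group by an interaction term in edgeR over 719 miRNAs. It differed for 16 (2.23%), with liver relatively higher in HF for 9 and relatively lower for 7. Of these 9, 8 were epithelial miRNAs, and their values differed mainly through 2 eWAT libraries of the LF group. miR-200b-3p, for instance, stood at 30.9 to 52.8 scaled CPM in the 6 eWAT HF libraries and at 5949, 29.3, 48.5, 4168, 38.2 and 96.5 in eWAT LF replicates 1 to 6, while the liver means were 615 in HF and 565 in LF. Without eWAT LF replicates 1 and 4, the libraries with the highest summed miR-200 level, 1 miRNA was called and the interaction of miR-200b-3p went from 5.49 to 0.37 on the log2 scale. These 2 libraries were picked by the level of the miR-200 family itself. The fall of its members was thus set by the choice and is not a separate test.

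The 7 in the other direction included 6 miRNAs of the Dlk1-Dio3 domain, of which miR-127-3p was the most abundant. It stood at 3.64 to 7.43 scaled CPM in liver HF and 6.07 to 19.1 in liver LF, and at 163 to 233 in eWAT HF and 142 to 233 in eWAT LF, so that its tissue difference was larger in HF by 1.16 on the log2 scale (SE 0.32; edgeR adjusted p = 0.0462). The remaining 5 and miR-296-5p had means of at most 2.35 scaled CPM in liver in either group. The count of calls moved with single libraries: it was 2 without liver HF replicate 4, 5 without liver HF replicate 1, 11 without liver HF replicate 3, and 9 or 10 without each of liver HF replicates 2 and 5 and eWAT HF replicates 2, 3, 4 and 5.

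Against the HFLF group the tissue difference in HF was called for 0 of 719 miRNAs (0.0%) by edgeR, with 67 at an unadjusted p under 0.05 and 7 called by DESeq2. The smallest adjusted p was 0.0966, for miR-409-5p. The 16 and 0 calls come from comparisons that share the HF libraries and are given side by side without a test between them.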

How the data were processed

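Members and miRNA lists were chosen with earlier results of these data known. Small RNA from 1 µg of total RNA per sample was prepared with the NEXTFLEX Small RNA-seq Kit v3 and sequenced, per the labels' protocols. The authors deposited a table of raw counts per mature miRNA line, made with cutadapt and Bowtie on GRCm38.p6 per the submitters' processing notes, with versions not given in the sources used. Beside the counts the authors deposited normalized CPM values, which were not tested. The authors also deposited log2 tables of 171 liver and 180 eWAT miRNAs, used only to see which libraries they kept. Column letters L, W and H were read as liver, eWAT and HF. Of lines with the same mature name (87 names), the line with the highest total was used. This left out 13.7% to 14.8% of the liver column totals and 24.3% to 26.7% of the eWAT column totals. The lines were identical for 51 of the 87 names, and for the others the lines left out held different counts.

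Counts were fitted with edgeR 4.0.16 (R 4.3.3; TMM, robust quasi-likelihood, a minimum count of 10 and total of 15), and glmTreat tested against 2-fold. Arm ratios and the let-7 sum used 2-sided exact permutation tests. DESeq2 1.42.0, limma 3.58.1, other scalings, filters and left-out libraries were alternatives. The fit was tested on simulated counts. Replicate numbers were not taken as pairs. miRNAs were named as the 10 most abundant and most different per tissue, list members, the let-7 arms, near-equal miRNAs, and called arm ratios and interactions.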

Additional observations from a re-analysis of the deposited data

Results flagged for a closer look

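In 26 of 242 groups tested, where a group is the libraries of a tissue for 1 of the miRNAs examined, 1 library stood apart from the rest of its group by Dixon's criterion, where chance alone gives about 1 in 20. Values are scaled CPM. eWAT replicate 1 was the high library for 8 of them: miR-143-3p (153220), miR-218-5p (453), miR-196a-5p (444), miR-196b-5p (231), miR-9-5p (78.3), miR-137-3p (0.727), miR-23b-3p (3344) and miR-24-1-5p (20.5). eWAT replicate 6 was high for miR-34c-5p (73.2), miR-34b-3p (56.1) and miR-192-3p (0.468) and low for miR-455-3p (78.8). eWAT replicate 3 was high for miR-1948-5p (1.97) and miR-193b-3p (14.5). eWAT replicate 2 was apart for miR-30a-5p (26386) and miR-342-3p (300.7). Liver replicate 1 was high for miR-122-5p (1191520), miR-96-5p (27.9), let-7a-5p (85394), let-7b-5p (19323), let-7c-5p (51556) and let-7d-5p (14696). The other liver libraries apart were replicate 3 for miR-192-3p (46.5) and miR-541-5p (31.2), replicate 5 for miR-204-5p (0.737) and replicate 2 for miR-23a-3p (3788).

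The tissue difference in HF minus that in LF passed the test of the interaction (edgeR, adjusted p under 0.05) for 16 miRNAs. On the log2 scale it was 6.598 for miR-200c-3p, 5.49 for miR-200b-3p, 5.35 for miR-200a-3p, 5.42 for miR-429-3p, 7.91 for miR-141-3p, 6.71 for miR-205-5p, 4.32 for miR-182-5p, 5.94 for miR-96-5p and 2.86 for miR-1247-5p. It was -1.16 for miR-127-3p, -3.59 for miR-668-3p, -4.67 for miR-299a-3p and -4.25 for miR-376c-3p. Fitted values of -7.67 for miR-409-5p, -7.49 for miR-296-5p and -6.96 for miR-673-5p depend on the prior count, since these had no count in liver HF.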

How the results depend on the processing

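The scaling between tissues limits the comparison most. Of the 121 miRNAs examined, 21 changed sign under plain library totals: miR-148b-3p (-0.30), miR-200c-3p (-0.47), miR-205-5p (-0.43), miR-29a-3p (-0.22), miR-30a-5p (-0.91), miR-30d-5p (-0.67), miR-26b-5p (-0.13), miR-378a-3p (-0.66), miR-146a-5p (-1.21), miR-23b-3p (-0.39), miR-27b-3p (-0.37), miR-24-1-5p (-0.54), miR-99a-5p (-1.35), let-7a-5p (-0.56), let-7c-5p (-1.35), let-7d-5p (-0.81), let-7f-5p (-0.47), let-7g-5p (-0.10), miR-98-5p (-1.25), miR-151-5p (-1.39) and miR-30a-3p (-1.18). The let-7 total reversed to -0.72, and 302 miRNAs were called beyond 2-fold. List medians reversed to -1.25 (let-7), -0.81 (adipocyte), -0.49 (endocrine), -0.80 (neural), -0.48 (miR-17-92), -0.65 (miR-30), -0.22 (miR-29), -0.96 (miR-221-222) and -0.66 (lipid-gene introns). The let-7 median was also -0.013 with DESeq2 size factors, and the endocrine median -0.12 with liver replicate 6 included. The 4 uncalled miRNAs miR-99a-5p, let-7c-5p, miR-98-5p and miR-151-5p gave -0.13, -0.10, -0.013 and -0.16 with DESeq2 size factors and with DESeq2, and -0.12, -0.099, -0.0088 and -0.15 with no filter. With liver replicate 6 included miR-99a-5p gave -0.22, let-7b-5p 0.21 and miR-151-5p -0.18, and 11 arm ratios were called. With all 36 libraries in the fit miR-146a-5p gave -0.049, miR-99a-5p -0.40, let-7c-5p -0.015, miR-98-5p -0.082, miR-151-5p -0.37 and miR-30a-3p -0.14. DESeq2 called 29 miRNAs against LF and 7 against HFLF. With a replicate block the let-7 total was 0.74 (paired exact permutation p = 0.0625, the smallest 5 pairs allow), 0 arm ratios were called, which 5 pairs cannot call after adjustment, and 1 miRNA was called against LF. That block called 310 miRNAs between the tissues, and 182 beyond 2-fold. Same-numbered libraries deviated together with correlations of -0.34 to 0.14 over 148 miRNAs, and the numbers were not taken as pairs. Correlations between 2 tissues cannot show whether same-numbered libraries came from the same mouse, so pairing stays unknown. Without the eWAT LF libraries rich in miR-200, 1 miRNA was called against LF. Leaving out each HF library in turn gave 320 to 364 calls, 184 to 211 beyond 2-fold, let-7 totals of 0.51 to 0.72, 20 to 25 arm ratios, 2 to 19 calls against LF and 0 to 1 against HFLF. Sign changes there were found for 8 uncalled miRNAs of the 121: miR-99a-5p (-0.14 to 0.10), let-7c-5p (-0.17 to 0.11), miR-151-5p (-0.15 to 0.080), miR-98-5p (-0.029 to 0.22), miR-146a-5p (-0.11 to 0.30), miR-25-3p (-0.23 to 0.027), miR-214-3p (-0.28 to 0.045) and miR-206-3p (-0.45 to 0.035). Causes were not tested.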
